A study of Mus musculus with 2 samples.

Results

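Ribosome biogenesis and RNA polymerase I are described here through 41 named genes, measured in primary mouse myoblasts with and without Wnt3a. The genes were chosen by name, as subunits of RNA polymerase I, nucleolar proteins, small nucleolar ribonucleoprotein (snoRNP) proteins and assembly factors of both ribosomal subunits. This choice was made with earlier results of these data known. All 41 were on the array, among 18193 genes in all, with 87 probe sets between them. Each gene was read on its brightest probe set, the one with the highest mean over both arrays. The cells came from newborn mice of strain Sv129 and grew on wells coated with laminin and collagen. The control array held RNA from myoblasts left for 4 hours in a low-serum medium, DMEM plus 2% horse serum. The Wnt3a array held RNA from myoblasts given 100 ng/ml Wnt3a, a secreted Wnt ligand, in the same medium for the same time. Each condition has 1 array, so no difference below has a replicate, an SD or a test. The labels do not say how many mice or dishes stand behind an array.

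Ribosome production starts in the nucleolus, where RNA polymerase I transcribes a long precursor of the ribosomal RNAs. Guide RNAs held in snoRNPs direct the chemical modification of this precursor, box C/D particles for methylation and box H/ACA particles for pseudouridylation. Processing factors then cut and fold the precursor into the small and the large ribosomal subunit. Production of ribosomes is among the main costs of a growing cell, and synthesis of ribosomal RNA is known to decline as myoblasts leave the cell cycle to differentiate.

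The arrays carried a myoblast profile, and several facts of the whole arrays bear on small differences. Of 8 myoblast markers all 8 had a mean of at least 6 on the log2 scale, with Myod1 at 13.41 in the control and 13.28 with Wnt3a. Others of these markers differed by more, in both directions, with Myf5 at 0.49, Des at 0.32, Itga7 at -0.26, Myog at -0.50 and Vcam1 at -0.63. Of the other cell types' markers, 2 of 8 fibroblast, 3 of 6 leukocyte, 1 of 5 endothelial, 1 of 2 Schwann cell, 2 of 4 smooth muscle, 3 of 5 lung epithelial and 0 of 2 red cell genes on the array reached that level. The summed intensity of the lung epithelial markers was 753 in the control and 463 with Wnt3a, that of the smooth muscle markers 8730 and 10578, and that of the fibroblast markers 12677 and 10955. Of the 5 lung epithelial markers 3 were lower and 2 higher. Scgb1a1 was at -2.43, the lowest difference of all genes, and Sftpc, with a mean below 6, at -1.07. The part of these other cell types in the differences below was not tested. All 42 spike-in control probe sets were lower on the Wnt3a array, with a median log2 difference of -0.19, while the median over all genes was 0.00. The probe sets for the 3′ and 5′ ends of Actb differed by 0.56 in the control and 0.60 with Wnt3a, and those of Tfrc, a dimmer transcript, by 1.33 and 1.96. All differences below are therefore relative to the bulk of the genes, and in RNA from whole cultures fewer expressing cells cannot be told apart from less RNA per cell.

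The ribosome biogenesis genes were mostly lower with Wnt3a, by small amounts. Of the 41 genes 36 were lower and 5 higher, against 47.1% lower and 49.8% higher over all genes. A difference of at least 1.1-fold downwards was seen for 15 members and upwards for none, where 16.3% of all genes were lower and 17.1% higher by that much. The members' median log2 difference, Wnt3a minus control on log2(intensity + 1), was -0.11. Individual members ranged from -0.36 for Rrs1 to 0.13 for Nop58. At 1.2-fold, 4 members were lower (Rrs1, Gar1, Wdr43 and Rrp1b), which is 9.76% of them against 4.64% of all genes. At 1.5-fold no member differed in either direction, against 0.231% of all genes lower and 0.632% higher. These counts describe a pair of arrays.

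All 41 members had a mean of at least 8 on the log2 scale, so no low-value filter removed any of them. Among the 7639 genes that bright, 54.7% were lower and 15.9% were lower by at least 1.1-fold, with a median of -0.015. The middle 95% of all genes lay between -0.33 and 0.35, and of the members only Rrs1 fell outside it. Rrs1 stood 336th from the lowest of the 18193 genes. Scaled on the spike-ins instead of the bulk of genes, each difference would be 0.19 higher, 10 members would remain lower and the members' median would be 0.077. Over all genes that scaling moves the median to 0.19. The sign of most members thus depends on the reference, while their place among the other genes does not.

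**Figure D1:**
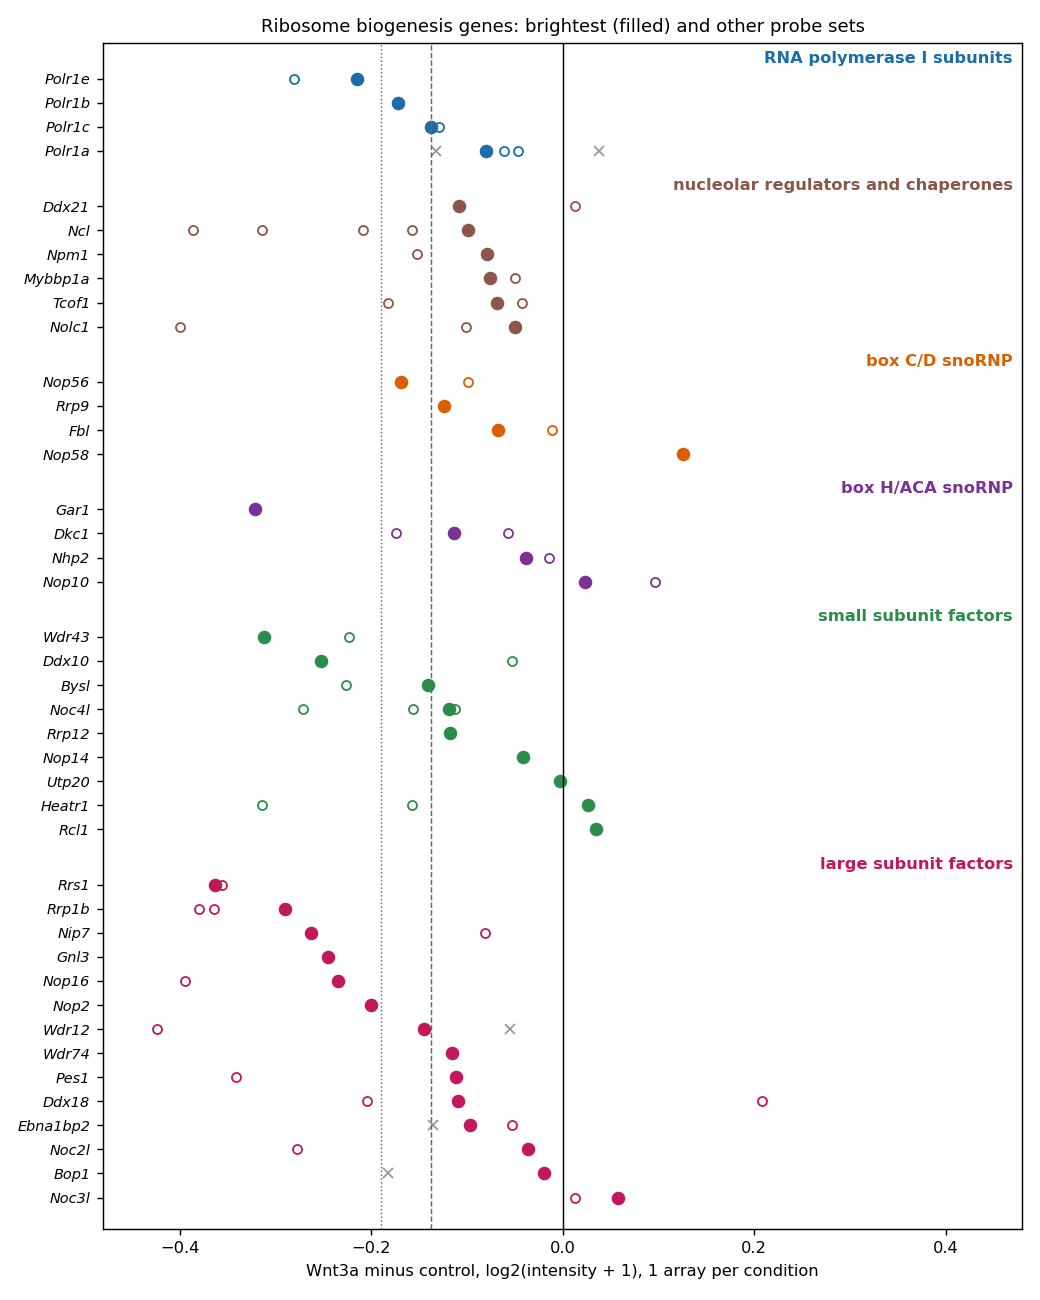
Log2 difference (Wnt3a minus control) of the probe sets of all 41 genes, grouped by role, with the brightest probe set filled, others open and those with a mean below 6 as grey crosses. The dashed line marks 1.1-fold lower and the dotted line the median of the spike-ins at -0.19, and 36 of the 41 filled points lie left of 0.

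**Figure D2:**
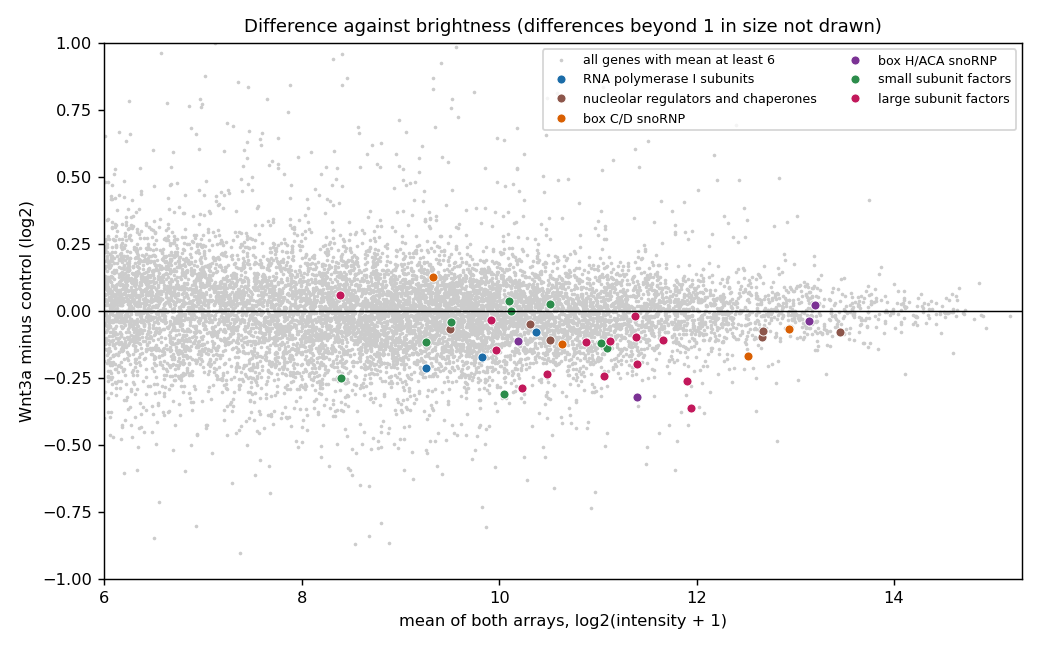
Log2 difference (Wnt3a minus control) against the mean log2 level of both arrays, with the 41 genes coloured by role over all genes with a mean of at least 6 in grey. Members lie between means of 8.38 and 13.45, and Rrs1 at a mean of 11.95 is the lowest of them.

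The promoters of the members were searched for short motifs, because many ribosome biogenesis genes are known targets of the Myc family, which binds the E-box CACGTG. RefSeq promoters of build GRCm38.p6, 250 bases before to 50 after the start, were matched for 35 of 41 members and 14368 of all genes. The most upstream start was used for each gene. Rrs1, the lowest member, and Npm1, Fbl, Tcof1, Bop1 and Rrp12 had no matched promoter and were not searched. Motifs were searched on both strands, and no member had matches of different motifs that share bases. CACGTG was found in 5 of 35 member promoters (14.3%, against 9.06% of all promoters), in Wdr43, Nop2, Pes1, Mybbp1a and Utp20. The median difference was -0.11 in these 5 and -0.11 in the 30 without it. A match begins after the start in 4 of the 5 and before it in Nop2. The stretches around the motif in the lowest 4 are shown on the coding strand, with the motif in capitals.
Wdr43, chr17:71616220-71616249, plus strand: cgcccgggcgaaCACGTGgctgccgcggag
Nop2, chr6:125131811-125131840, plus strand: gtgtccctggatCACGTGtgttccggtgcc
Pes1, chr11:3963965-3963994, plus strand: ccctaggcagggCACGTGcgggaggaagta
Mybbp1a, chr11:72441355-72441376, plus strand: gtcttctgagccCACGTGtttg

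The ETS-type motif CCGGAAG was more common in these promoters than in all matched promoters. It was present in 13 of 35 member promoters (37.1%) and in 13.8% of all promoters. Its holders among the members had a median difference of -0.12, and the 22 members without it had -0.11. Over all genes, the medians were -0.017 with the motif and 0.0056 without it. GGGCGG, the core of GC boxes, was present in 80.0% of member and 54.1% of all promoters. All promoters include those of dim genes, while all 41 members had a mean of at least 8. For neither motif were the members compared with genes that bright, and the differences in share were not tested. The TCF/LEF core, searched as CTTTGAA or CTTTGAT, was present in 2 members (5.71%), Noc4l and Ncl, and in 6.99% of all promoters. Median GC content was 58.0% in the members and 58.7% in all, and the CpG count per 100 bases was 7.0 and 5.7. The lowest of the matched members that hold CCGGAAG are Gar1 and Nip7. For these, 150 bases before the start are shown with the motif, or its reverse complement, in capitals. This pair was chosen after the shares were seen.
Gar1, chr3:129831397-129831546, minus strand: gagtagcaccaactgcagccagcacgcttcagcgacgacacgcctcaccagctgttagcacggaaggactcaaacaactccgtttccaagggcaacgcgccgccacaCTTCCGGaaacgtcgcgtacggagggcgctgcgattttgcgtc
Nip7, chr8:107056727-107056876, plus strand: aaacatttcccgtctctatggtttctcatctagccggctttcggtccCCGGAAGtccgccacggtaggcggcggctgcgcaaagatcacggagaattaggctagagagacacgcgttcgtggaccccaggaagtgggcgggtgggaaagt

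All 4 RNA polymerase I subunits were lower with Wnt3a, with a median difference of -0.16. Of all genes with a mean of at least 8, 54.7% were lower. Polr1e, a subunit of the heterodimer that binds initiation and elongation partners, had an intensity of 659 in the control and 567 with Wnt3a (log2 difference -0.21, and -0.28 on its other probe set). Polr1b, the second-largest subunit, went from 959 to 851 (-0.17). Polr1c, which RNA polymerase III also uses, went from 2283 to 2075 (-0.14, and -0.13 on its other probe set). Polr1c was the member just inside the 1.1-fold line, and Rrp9, at -0.12, the one just outside. Polr1a, the largest and catalytic subunit, differed least, at 1359 and 1286 (-0.081). Its 2 other probe sets above a mean of 6 gave -0.06 and -0.05. After spike-in scaling only Polr1e stayed below 0, at -0.025.

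The 6 nucleolar regulators and chaperones were all lower, each by less than 1.1-fold on the brightest probe set (median -0.077). The share lower among all genes with a mean of at least 8 was 54.7%. Ddx21, an RNA helicase of the nucleolus, was at -0.11, with 0.01 on its other probe set. Ncl (nucleolin), an abundant RNA-binding protein of the nucleolus, went from 6714 to 6269 (-0.099), and its other 4 probe sets were lower still, from -0.39 to -0.16. Npm1 (nucleophosmin), a chaperone of ribosome assembly, was at -0.079 and -0.15 on its probe sets. Nolc1, a chaperone of snoRNPs, was at -0.050 on the brightest probe set but at -0.40 and -0.10 on the others. Mybbp1a, a nucleolar Myb-binding protein, was at -0.076, and Tcof1 (treacle), which supports transcription by RNA polymerase I, at -0.068. Averaging all probe sets moved Ncl to -0.23 and Nolc1 to -0.18, past 1.1-fold.

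The core proteins of both kinds of snoRNP did not share 1 direction. Of the box C/D proteins, the scaffold gene Nop56 was lower, with 6223 in the control and 5534 with Wnt3a (-0.17, and -0.10 on its other probe set). Its partner Nop58 was the highest of all 41 members, with 615 and 671 (0.13, 1 probe set). Fbl (fibrillarin), the methyltransferase of the particle, was at -0.068, and Rrp9, which belongs to the particle that directs early cleavage of the precursor, at -0.12. Of the box H/ACA proteins, Gar1 went from 3002 to 2402 (-0.32, 1.25-fold lower, 1 probe set) and was the second-lowest member. Dkc1 (dyskerin), the pseudouridine synthase, was at -0.11, with -0.06 and -0.17 on other probe sets. Nhp2 and Nop10, small proteins of the same core, were close to 0, at -0.038 and 0.023. Within this core of 4 proteins, Gar1 and Nop10 marked the ends of the range.

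Of the 9 small subunit factors 7 were lower, 3 of them by at least 1.1-fold (median -0.12). These shares were 54.7% and 15.9% among all genes with a mean of at least 8. Wdr43, which links transcription of the precursor with its first processing, had an intensity of 1178 in the control and 949 with Wnt3a (-0.31, 1.24-fold lower, and -0.22 on its other probe set). Ddx10, an RNA helicase, went from 367 to 308 (-0.25, and -0.05 on its other probe set). Bysl (bystin), which acts on late precursors of the small subunit, went from 2284 to 2072 (-0.14, and -0.23 on the other). Noc4l and Rrp12, both at -0.12 on the brightest probe set, lay short of the 1.1-fold line, while 2 other probe sets of Noc4l, at -0.27 and -0.16, were past it. Nop14 (-0.041) and Utp20 (-0.0026), both parts of the early processing complex, were close to 0. Heatr1, a large scaffold of that complex, was at 0.027 on its brightest probe set but at -0.31 and -0.16 on the others. Rcl1, a cyclase-like processing protein, was at 0.035.

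The large subunit factors held 7 of the 15 members lower by at least 1.1-fold, and 13 of the 14 were lower (median -0.13). Among all genes with a mean of at least 8, 15.9% were lower by at least 1.1-fold and 54.7% were lower at all. Rrs1, which helps to install the smallest ribosomal RNA in the large subunit, had an intensity of 4473 in the control and 3478 with Wnt3a. That is a log2 difference of -0.36, or 1.29-fold lower, and its other probe set gave the same value at this precision. Rrp1b, a nucleolar protein that binds a phosphatase, went from 1324 to 1083 (-0.29), with -0.38 and -0.36 on its other probe sets. For both genes the probe sets stood close together.

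Nip7, a processing factor, went from 4203 to 3503 (-0.26), with -0.08 on its other probe set. Gnl3 (nucleostemin), a GTP-binding protein known from stem and progenitor cells, went from 2322 to 1959 (-0.25, 1 probe set). Nop16 was at 1556 and 1323 (-0.23, and -0.39 on its other probe set). Nop2, a methyltransferase of the large ribosomal RNA, was at 2890 and 2515 (-0.20, 1 probe set). The 3 proteins of the PeBoW complex, which processes the precursor of the large subunit, were lower by unequal amounts. Wdr12 went from 1055 to 954 (-0.15, and -0.42 on its other probe set above a mean of 6), Pes1 from 2323 to 2150 (-0.11, and -0.34 on the other) and Bop1 from 2682 to 2647 (-0.019). Thus the spread between probe sets of Wdr12 and Pes1 exceeded the differences on their brightest ones.

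None of the remaining large subunit factors reached 1.1-fold on the brightest probe set. Wdr74 was at -0.12, the helicase Ddx18 at -0.11, Ebna1bp2 at -0.097 and Noc2l at -0.036, the last with -0.28 on its other probe set. Noc3l, which pairs with Noc2l in assembly intermediates, was the only large subunit factor above 0, at 0.058 and 0.01 on its probe sets. Ddx18 had probe sets of opposite sign, with -0.20 on one and 0.21 on a dimmer one.

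The other probe sets of the members, which the choice of the brightest left aside, leaned the same way. Of the 41 other probe sets with a mean of at least 6, 37 were lower, with a median of -0.16. Over all genes, 53.6% of the other probe sets that bright were lower, with a median of -0.017. Of 29 members with at least 2 such probe sets, 24 had all of them lower, 2 (Nop10 and Noc3l) all higher and 3 (Ddx18, Ddx21 and Heatr1) mixed signs. All probe sets were lower in 31.4% of the 5009 genes of the whole array with 2 or more. Over every probe set of the members, bright or not, 77 of 87 were lower, against 47.9% of all probe sets. The pooled SD between probe sets of a gene was 0.11 for the members and 0.12 for all genes, about as large as the members' median difference. Probe sets of a gene read the same RNA, so this repeats the probe and not the culture.

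Other genes of the pathway, 99 on the array from 4 lists, showed the same lean. Of these 82 were lower and 16 higher, against 47.1% lower and 49.8% higher over all genes. Among all genes with a mean of at least 8, 54.7% were lower. By at least 1.1-fold, 48 of the 99 were lower and 0 higher, against 16.3% and 17.1% of all genes. The median of the 99 was -0.14. The lists were written with earlier results of these arrays known, so they are not independent of them. Among other small subunit factors 34 of 40 were lower (median -0.13). Riok2, a kinase of late small subunit precursors, went from 9.38 to 8.86 on the log2 scale (-0.53, 1.44-fold lower), and its 2 other probe sets above a mean of 6 gave -0.51 and -0.55. Tsr1, a maturation factor of the small subunit, was at -0.42 and -0.44. Esf1 was at -0.36, with -0.35 and -0.10 on its other probe sets.

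Among other large subunit factors 35 of 40 were lower (median -0.16), against 47.1% of all genes. Nol8 was at -0.46, with -0.32 and -0.31 on other probe sets, and Nmd3, the export adaptor of the large subunit, at -0.42, with -0.28 on its other probe set above a mean of 6. Surf6, a nucleolar protein, was at -0.38. Each of these 3 exceeded the lowest of the 41 genes in size.

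Over all genes 47.1% were lower, and 54.7% of those with a mean of at least 8. Among other RNA polymerase I genes 7 of 11 were lower (63.6%), with a median of -0.033. The subunit genes annotated as Cd3eap (-0.38) and Twistnb (-0.31) and Taf1a (-0.25), a part of the initiation complex, were lowest. Twistnb gave -0.18 on its other probe set above a mean of 6. The initiation factors Ubtf (0.10) and Rrn3 (0.09) were above 0. Of 8 snoRNP assembly genes 6 were lower (median -0.060), led by Znhit6 (-0.32), an assembly factor of box C/D particles, with Naf1 (-0.14) and Shq1 (-0.12) of the box H/ACA pathway next. Of 14 genes of the RNA exosome, the nuclease that trims precursors, and of related factors such as Mphosph6 and Xrn2, 12 were lower (median -0.099). Exosc9 was at -0.37, Mphosph6 at -0.18 and Exosc4 at -0.17. The other probe sets of Exosc4 gave -0.06 and -0.05.

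The ribosomal protein genes were almost evenly divided, mostly on probe sets near the top of the arrays' range. Of the 44 cytosolic ribosomal protein genes with a probe set annotated to 1 gene, out of 79 listed, 23 were lower and 21 higher, with a median of -0.0036. By at least 1.1-fold, 1 was lower (Rpl27a, -0.24) and 2 were higher (Fau, 0.21, and Rps9, 0.16). Rpl27a was read at a mean of only 6.89, far below most of the list. Both other probe sets of Rps9 were below 0, at -0.05 and -0.07. Ribosomal protein genes have many near-identical copies in the genome, so their probe sets can read more than 1 locus. Of the 44 genes 32 had a mean of at least 14 on the log2 scale, which none of the 41 genes reached, and the highest value on either array was 15.18. Array signals near the top of the range can be compressed, and whether that holds here was not tested, so these values do not show that ribosomal protein transcripts were unchanged. The difference between this list and the 41 genes was not tested.

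**Figure D3:**
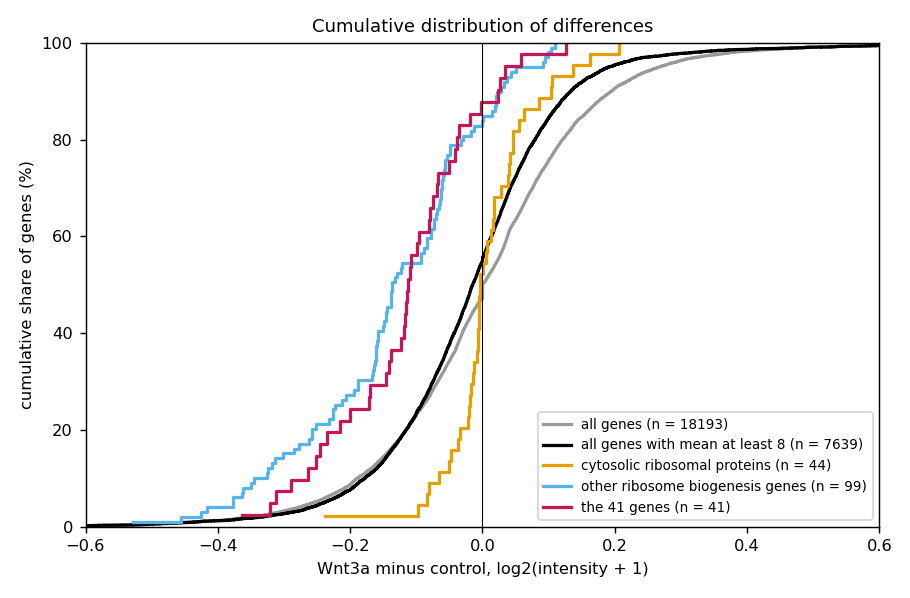
Cumulative share of genes (%) against the log2 difference (Wnt3a minus control) for the 41 genes, 99 other ribosome biogenesis genes, 44 cytosolic ribosomal proteins, all 18193 genes and the 7639 with a mean of at least 8. At their midpoints the curves of the 41 and the 99 genes lie left of those of all genes. In the far lower tail they do not, as they end at -0.36 and -0.53. The curve of the ribosomal proteins crosses its midpoint near 0.

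**Figure D4:**
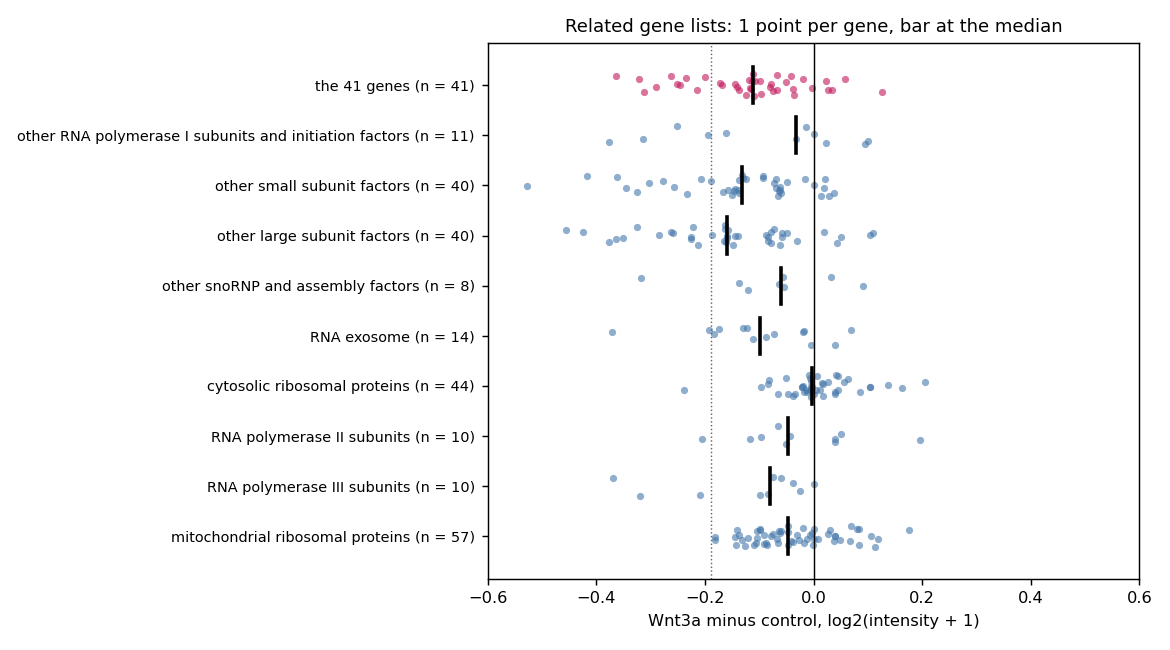
Log2 difference (Wnt3a minus control) of each gene in the 41 and in 9 related lists, with a bar at each median and a dotted line at the spike-in median of -0.19. Medians run from -0.16 for other large subunit factors to -0.0036 for cytosolic ribosomal proteins.

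Myc, whose product is known to drive ribosome biogenesis genes, was lower on the same pair of arrays. It went from 10.58 in the control to 9.44 with Wnt3a on its 1 probe set, a 2.19-fold difference. Whether it had a part in the members' differences was not tested. Axin2, a standard target of Wnt signalling that checks the treatment label, went from 6.64 to 10.25.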

How the data were processed

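RNA of control and of Wnt3a-treated myoblasts was measured on 1 array each. The deposited intensities are linear, 1 per probe set and array, from 7.09 to 37075 in the control and from 7.07 to 36604 with Wnt3a. The tools were RMA, affy and limma per the submitters' processing notes, and the step to a linear scale, tool versions and genome build are not stated in the labels or file. Intensities were used as log2(intensity + 1). Probe sets named for 1 gene by GEO's platform annotation were kept (34945 of 45101, with 932 naming several genes, 9160 unnamed here and 64 controls), and each gene was read on the one with the highest mean. A pseudocount of 1 shrinks differences of dim genes slightly. The number of arrays limits the precision.

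The members, role groups, lists, motifs and the fold of 1.1 were chosen with earlier results of these data known. Members at least 1.1-fold different, above 0 or of mixed sign were to be described singly, the rest in their groups, with up to 3 genes of each related list, Myc, and the promoters of up to 4 members with CACGTG. The counting code was checked on simulated data with less noise than between probe sets of a gene here. Its shifts were larger than the members' median difference, so it checks the code and not the precision of these arrays. The alternatives were other pseudocounts, floors, probe set rules, normalizations and folds. Software was statsmodels 0.14.6 (loess) and pandas 2.3.3 with numpy 2.4.6, under Python 3.11.15.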

Additional observations from a re-analysis of the deposited data

How the results depend on the processing

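Outside spike-in scaling and the folds, 10 alternatives gave 33 to 37 members lower, against 46.9% to 54.7% of all genes. The count of 33 is out of 38 members, those left without probe sets of suffix _s_at, _x_at or _a_at. The 10 alternatives gave 11 to 19 members lower by at least 1.1-fold, against 12.3% to 17.1% of all genes. Medians ran from -0.13 to -0.095. The floors removed no member and the median over all genes was already 0.00, so the floors and median centring could not change the members' values. Among the members, Heatr1 (with the mean or median of its probe sets) and Utp20 (with loess or quantile normalization) were the only ones to change sign under these 10. With a fold of 1.2 in place of 1.1, 4 members were lower, and with 1.5, 0. No paired analysis was possible because each condition has 1 array, and no replicate could be left out.

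Scaling on the spike-ins adds 0.19 to every difference by its construction. It gave 10 of 41 members lower, against 10.04% of all genes, 1 by at least 1.1-fold, against 2.48%, a median of 0.077 and 27 of 87 probe sets lower. The sign changed for 26 members, among them 5 that had been lower by at least 1.1-fold: Polr1b (0.017), Polr1c (0.052), Nop56 (0.020), Bysl (0.049) and Wdr12 (0.044). Medians and numbers lower became 0.034 and 1 for RNA polymerase I subunits, 0.11 and 0 for nucleolar regulators, 0.094 and 0 for box C/D proteins, 0.11 and 1 for box H/ACA proteins, 0.072 and 2 for small subunit factors and 0.059 and 6 for large subunit factors. For the related lists they became 0.16 and 4 (other RNA polymerase I genes), 0.058 and 10 (other small subunit factors), 0.031 and 13 (other large subunit factors), 0.13 and 1 (other snoRNP factors), 0.090 and 2 (RNA exosome), 0.19 and 1 (cytosolic ribosomal proteins), 0.14 and 1 (RNA polymerase II), 0.11 and 3 (RNA polymerase III) and 0.14 and 0 (mitochondrial ribosomal proteins).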

Other observations

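Genes of the other polymerases and of the mitochondrial ribosome were nearer to 0 in their medians than the 41 genes, a difference that was not tested. The other RNA polymerase I genes, with a median of -0.033, were nearer to 0 than each of these lists. The share lower was 90% for RNA polymerase III, 60% for RNA polymerase II and 68.4% for the mitochondrial ribosome, beside 87.8% of the 41 genes. Of 10 RNA polymerase III subunit genes, whose enzyme makes transfer RNAs and the smallest ribosomal RNA, 9 were lower and 1 higher, against 47.1% of all genes lower, with a median of -0.080. Polr3g was at -0.37, Polr3f at -0.32 and Polr3k at -0.21, and all 3 would lie below 0 after spike-in scaling too. On other probe sets above a mean of 6, Polr3f was at -0.22 and -0.16, and Polr3k at -0.26, -0.22 and -0.12. Probe sets with means below 6 gave 0.37 and 0.42 for Polr3f, and 0.34 and -0.11 for Polr3k. Of 10 RNA polymerase II genes, with subunits shared by all 3 polymerases among them, 6 were lower (median -0.047). The largest subunit, Polr2a, was at 0.20 (0.17 on its other probe set), Polr2b, the second-largest, at -0.21 and the shared subunit Polr2h at -0.12. Of 57 mitochondrial ribosomal protein genes 39 were lower (median -0.047), with Mrps6 (-0.18), Mrpl47 (-0.18) and Mrps24 (0.18) the farthest from 0. The other probe set gave -0.16 for Mrps6 and 0.05 for Mrps24.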
